A study of Mus musculus with 2 samples.

Results

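Distal POU3F1 peaks of the embryonic mouse retina, those lying 50 to 500 kb from a transcription start site (TSS), made up most of the deposited assignment of peaks to genes. They were chosen by distance alone: every gene-peak pair of the authors' deposited gene table with an absolute distance above 50000 bp and up to 500000 bp was taken. This gave 2685 of 4427 pairs (60.7%, 95% exact interval 59.2 to 62.1%) and 1545 of 2323 genes. Through each gene's TSS, 2628 of the 2685 pairs were placed on their interval, and these used 1838 of the 2652 peaks (69.3%), while 57 pairs of 37 genes could not be placed.

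Chromatin of retina from wild-type CD1 mouse embryos at embryonic day 14 was profiled by CUT&RUN with an antibody against POU3F1 in 1 library and with rabbit IgG, an antibody without a specific target, in 1 library. The peak list is that of the POU3F1 library, and the IgG signal was not analysed here. The sources used here give neither the number nor the sex of the embryos. With 1 library there was no replicate, so the values below describe 1 peak list and carry no test, and intervals cover counting error only. The label retinal cells cannot be checked against expression in data of this kind.

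POU3F1 is a transcription factor with a POU domain, a pair of linked DNA-binding parts that together read an eight-letter site, the octamer. In CUT&RUN an antibody brings a nuclease to the protein on chromatin, and the DNA around it is cut out and sequenced. Sites far from a start are commonly candidate enhancers, which can act on a promoter over a long stretch of DNA through looping, skip a nearer gene, or serve several genes. The GREAT program, which made the deposited gene table, assigns a peak to genes by genome position, so a pair is a neighbourhood and not a shown target. The series concerns contralateral retinal ganglion cells (RGCs), the output neurons of the retina whose axons cross the midline.

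A small share of the distal peaks overlapped a window around an annotated start, not always the start itself. These give the sequences that can be printed from the reference. RefSeq start windows (250 bases before to 50 after a start, GRCm38.p6, the assembly of mm10) overlapped 41 of the 1838 peaks (2.23%, exact interval 1.61 to 3.01%) in 48 windows, some of them overlapping windows of 1 gene. A peak can overlap several windows. In 27 of the 41 peaks the window belonged to a non-coding gene to which the peak was not assigned, and in 15 to a gene to which it was assigned, often an alternative start. The octamer ATGCAAAT, searched on both strands, was present without mismatch in the peak-covered part at 2 peaks, and with up to 1 mismatch at 18. The 5 stretches below show both exact matches and the peak-covered parts of windows at 3 named loci. Each runs 5′ to 3′ on the strand of the gene, with the matches of up to 1 mismatch in capitals. That of 2900060B14Rik (chr1:118459216-118459515, minus strand) lies in a 9.16-fold peak assigned to Clasp1 and Tfcp2l1, and that of Nhsl1 (chr10:18469731-18469833, plus strand) in a 9.33-fold peak at an inner start of Nhsl1, 61874 bp from the start that GREAT used. Kdm2b (chr5:122900301-122900600, minus strand), the gene of a histone demethylase, had an 18.1-fold peak at an inner start where overlapping matches on both strands, ATGCATAT and ATATGCAT, form 1 run of capitals. Sptbn1 (chr11:30198208-30198507, minus strand), a spectrin gene, had a 9.82-fold peak. The C130071C03Rik stretch (chr13:83732243-83732375, plus strand) lies in a 4.65-fold peak of the Mef2c locus described further on.
2900060B14Rik: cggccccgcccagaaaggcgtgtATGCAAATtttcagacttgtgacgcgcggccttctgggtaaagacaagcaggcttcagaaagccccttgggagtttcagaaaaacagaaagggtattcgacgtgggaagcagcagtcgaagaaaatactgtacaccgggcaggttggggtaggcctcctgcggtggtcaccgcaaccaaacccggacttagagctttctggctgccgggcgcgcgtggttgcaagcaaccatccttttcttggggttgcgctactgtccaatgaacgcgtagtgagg
Nhsl1: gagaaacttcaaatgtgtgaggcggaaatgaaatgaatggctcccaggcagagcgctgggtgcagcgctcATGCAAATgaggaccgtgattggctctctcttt
Kdm2b: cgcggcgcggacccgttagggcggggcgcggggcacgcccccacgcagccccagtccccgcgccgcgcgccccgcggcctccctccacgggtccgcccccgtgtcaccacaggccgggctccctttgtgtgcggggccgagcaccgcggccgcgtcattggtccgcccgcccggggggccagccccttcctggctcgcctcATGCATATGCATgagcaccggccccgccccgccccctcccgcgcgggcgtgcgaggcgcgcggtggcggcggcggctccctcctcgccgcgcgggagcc
Sptbn1: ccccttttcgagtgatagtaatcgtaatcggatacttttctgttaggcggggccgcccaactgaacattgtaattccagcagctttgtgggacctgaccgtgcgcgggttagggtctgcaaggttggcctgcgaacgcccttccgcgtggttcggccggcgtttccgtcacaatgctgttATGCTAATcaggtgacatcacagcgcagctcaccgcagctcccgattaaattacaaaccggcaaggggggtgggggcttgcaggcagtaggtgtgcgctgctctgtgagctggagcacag
C130071C03Rik: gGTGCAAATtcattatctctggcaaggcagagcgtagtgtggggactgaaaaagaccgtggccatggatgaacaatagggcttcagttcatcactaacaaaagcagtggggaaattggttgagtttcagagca

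The windows were compared with all RefSeq starts. Over all 32851 RefSeq windows, 1.74% held the octamer without mismatch and 18.6% with up to 1 mismatch. Of the 18 windows that lay whole inside a distal peak, 1 held it without mismatch (5.56%, exact interval 0.1 to 27.3%) and 11 with up to 1 mismatch (61.1%, 35.7 to 82.7%). Of the 51 windows that lay whole inside any other peak, 18 held it without mismatch (35.3%, 22.4 to 49.9%) and 36 with up to 1 mismatch (70.6%). Median GC content was 48.5% in the first set, 58% in the second and 52.7% over all windows, and its part in these shares was not tested. Some windows overlap within 1 peak, as those of Kdm2b with the same match, and the intervals count each as separate. The difference between the sets was not tested. A match is a description of these letters, and the windows stand for the few distal peaks at starts, not for the others, whose sequence was not used here.

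The distal pairs thinned out with distance and lay mostly downstream of the TSS. The median absolute distance was 184771 bp, with quartiles of 107562 and 311074 bp. Pairs per 10 kb fell by bin, from 121 at 50 to 100 kb through 84.0, 53.5 and 37.8 to 32.7 at 400 to 500 kb. GREAT extends a gene's domain only as far as its neighbours, so fewer genes can hold a pair at the longer distances. The part of this rule in the fall was not tested. Upstream of the TSS lay 1050 of 2685 pairs (39.1%, exact interval 37.3 to 41.0%), against 65.8% of the 395 pairs within 5 kb, 39.8% of the 658 pairs at 5 to 50 kb and 46.2% of the 689 pairs beyond 500 kb. GREAT's basal domain reaches 5000 bp upstream and 1000 bp downstream, which bears on the share within 5 kb. Of the 2628 placed pairs, 1028 lay upstream, 606 (23.1%) downstream inside the body of the assigned gene and 994 (37.8%) beyond its far end. Pairs upstream of the TSS that GREAT used but inside the annotated body, such as 1 of Foxp1, count here as upstream. A protein-coding start of another gene stood between peak and TSS in 84 placed pairs.

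**Figure D1:**
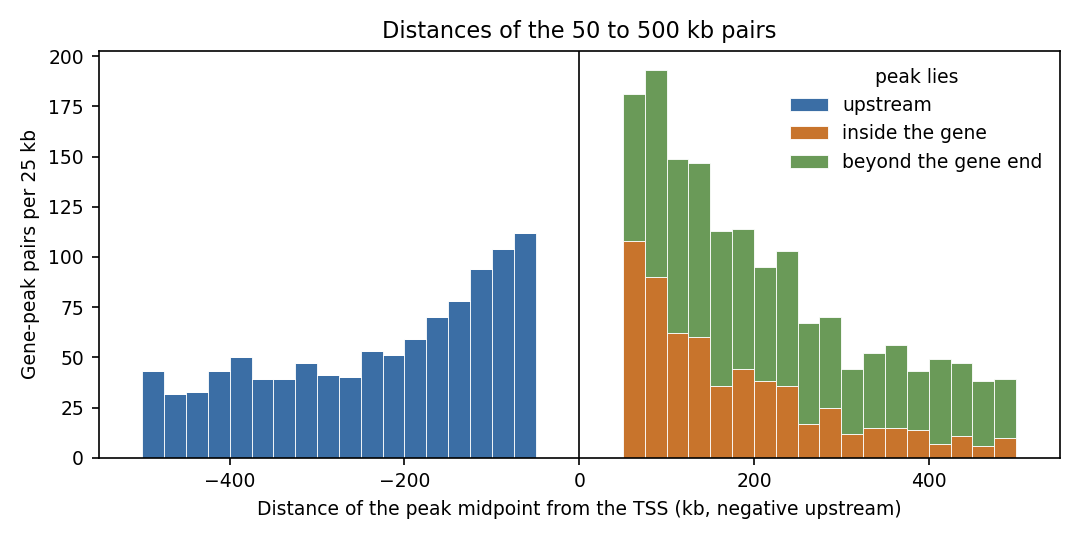
Number of the 2628 placed gene-peak pairs per 25 kb (y axis) by distance of the peak from the TSS in kb (x axis), coloured by where the peak lies relative to its gene. Bars are higher near the TSS on both sides. The 606 pairs inside the gene are downstream pairs only, since every pair upstream of the TSS is coloured as upstream, also where it lies in the annotated body.

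By gene annotation, 924 of the 1838 peaks (50.3%) had their midpoint in the body of a protein-coding gene. For 201 it lay in the body of a non-coding gene alone and for 713 (38.8%) outside annotated genes. The same shares over all 2652 peaks are not given, so these counts do not set distal peaks apart. For 341 peaks the distal gene was the sole gene assigned, and for 1473 the nearest assigned TSS was itself 50 to 500 kb away. Another assigned TSS lay within 50 kb of 365 peaks, and within 5 kb of 28 of them.

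Peak strength at 50 to 500 kb had a median near that of the neighbouring distance classes, which in part hold the same peaks. Fold is the authors' enrichment at the summit over local background, and its median over the 1838 peaks was 6.38, with quartiles of 4.91 and 8.84 and a range of 1.49 to 92.4. The median was 6.87 within 5 kb, 6.39 at 5 to 50 kb and 6.30 beyond 500 kb. A peak enters each class in which it has a gene. Of the 1838 peaks, 365 also had an assigned TSS within 50 kb and 347 one beyond 500 kb. The classes are therefore not separate sets, and some likeness of their medians is built in. At least 10-fold were 331 of the 1838 peaks (18%, exact interval 16.3 to 19.8%), beside 18.7% of all 2652 peaks, which include them. At least 50-fold were 4 of the 1838 and 18 of all 2652. Median length was 351 bp. The summit pileup, the number of fragments over the summit, was recovered from fold and p-value for all 1838 peaks, with a median of 18 and quartiles of 13 and 31, so that 1003 peaks rested on fewer than 20 fragments. In 578 peaks (31.4%) the summit background stood at the lowest value, 1.04 fragments, where the fold is set by the pileup alone.

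**Figure D2:**
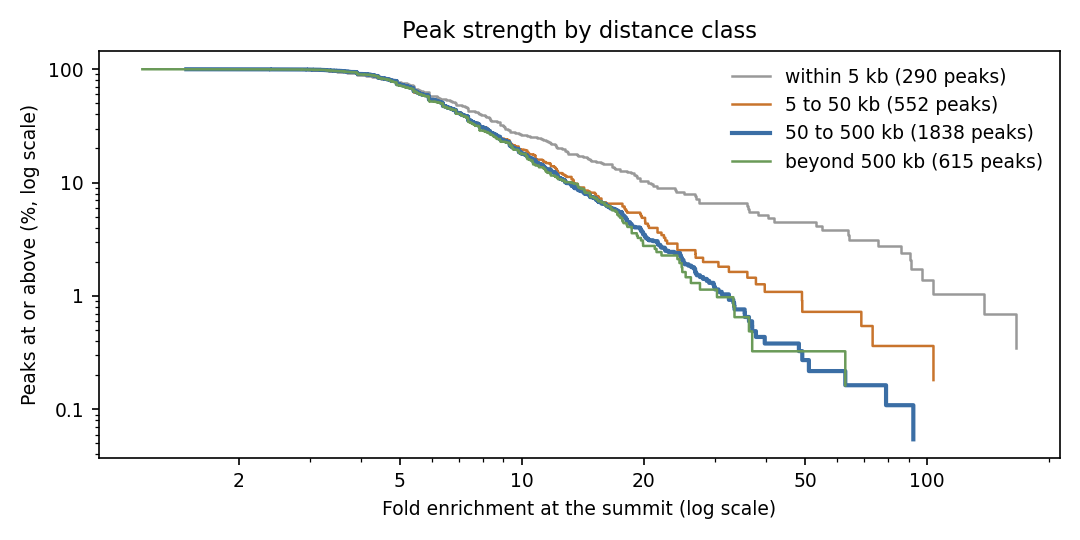
Share of peaks at or above a given fold (y axis in percent, x axis in fold, both log scales) for the 4 distance classes, a peak entering each class in which it has a gene. The line for 50 to 500 kb runs with those for 5 to 50 kb and beyond 500 kb up to about 20-fold, and the line for within 5 kb lies above them from about 10-fold.

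The 12 strongest distal peaks had folds of 35.5 to 92.4. At 92.4-fold (259 fragments at the summit) the highest was chr11:35454448-35455275, inside Slit3, which encodes a secreted repellent of growing axons. It was 333637 bp downstream of the Slit3 TSS and 314623 bp upstream of that of Pank3, a pantothenate kinase gene of coenzyme A synthesis. Inside Epha3, a receptor for ephrin-A ligands, chr16:63808878-63810579 reached 62.8-fold (163 fragments) 54430 bp downstream of the TSS. Close by, at 57491 and 58547 bp, Epha3 had 2 more peaks of 12.1-fold and 9.10-fold. The peak chr19:15836271-15837508 reached 51.1-fold (260 fragments) 88170 bp downstream of Psat1, a gene of serine synthesis. Gins2, which encodes a subunit of the replicative helicase, had peaks of 49.2-fold and 37.8-fold at 90426 and 68150 bp, both also assigned to Gse1 at 10431 and 32707 bp.

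Lmo4, a LIM-only transcription cofactor gene, had 37.0-fold (118 fragments) at 414884 bp downstream. Between the TSSs of Tcf7l2, a transcription factor gene of Wnt signalling, and Vti1a, a vesicle SNARE gene, a peak also reached 37.0-fold (226 fragments). Gbx2, a homeodomain factor gene, and Agap1 shared peaks of 35.5-fold and 31.1-fold, both inside Agap1. Peaks of 79.2-fold by 2010315B03Rik, 39.7-fold by Olfr721-ps1 and 36.3-fold by Mid1 were also among the 12 highest.

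Those 3 were 3038, 2898 and 2554 bp long, at chr9:124422894-124425931, chr14:14352059-14354956 and chrX:170019844-170022397, and only 6 of the 1838 peaks exceeded 2 kb. The chr9 peak held whole start windows of the protein-coding LOC108167694 and the non-coding 4930526I15Rik, and was assigned to neither. The chr14 peak was also assigned to Il3ra, 6915 bp from its TSS, so it is distal for Olfr721-ps1 alone. No blacklist of repeat-rich regions was applied here, so these folds are given as deposited. The longest, 4582 bp, lay over Gm10222 and Gm10925, pseudogenes of which the second carries the synonym mt-Atp6, with a summit background of 57.0 fragments. Another of 2005 bp lay over Rn18s-rs5, a ribosomal RNA-related sequence, with the highest summit background, 287 fragments, against a median of 1.54. Whether copy number of these sequences bears on their folds was not tested.

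Most genes had a single distal peak. Exactly 1 distal peak was found for 999 of the 1545 genes (64.7%), at least 2 for 546, at least 3 for 262, at least 5 for 69 and at least 10 for 7. The 546 genes with several held 1686 of the 2685 pairs (62.8%). Of those 546, 166 had peaks on both sides of the TSS, 130 upstream alone and 250 downstream alone. No peak within 50 kb was assigned to 1324 of the 1545 genes (85.7%). The same share over all genes with an assigned peak is not given, so this count does not set genes with a distal peak apart.

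Peak number went with the room around a gene. The locus span, the distance between the neighbouring protein-coding starts on both sides, had a median of 468 kb for genes with 1 distal peak, 700 kb with 2, 779 kb with 3 or 4 and 1016 kb with at least 5. Over all protein-coding genes the median span was 98.9 kb. GREAT extends a gene's domain to its neighbours, up to 1000000 bp, so a wide locus can collect more peaks by construction.

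Among the genes with the most distal peaks, Tmem161b had 22, Mef2c 16, Zfp608 14, Psat1, Adgrl2 and Tle4 11 each, Gm11232 10, and Tcf7l2, Foxp1 and Nlgn1 9 each. Mn1, Mvb12b, Dach1, Irx3 and Mdfic had 8 each, of which Mn1 and Mvb12b had the strongest peaks and are counted among the first 12. Zfp608, a zinc finger gene, had 9 peaks upstream and 5 downstream, from 3.93-fold to 35.5-fold, and shared none of them. Mn1, a transcriptional coregulator gene, had all 8 beyond its far end, the strongest of 27.5-fold at 102240 bp, and 4 of the 8 were shared with Cryba4. Gm11232, a predicted gene, had 6 upstream and 4 downstream, with 27.0-fold at 82.6 kb upstream in a peak shared with Tle1. Mvb12b, which encodes a subunit of an endosomal sorting complex, had 7 of 8 upstream, the strongest of 15.7-fold.

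Psat1 had all 11 peaks beyond its far end, from 86539 to 422175 bp downstream. Of these, 3 lay within 86539 to 88170 bp at 6.88, 8.82 and 51.1-fold, and the next strongest, 25.2-fold, at 121656 bp. Adgrl2, a latrophilin that binds adhesion partners across synapses, had 8 upstream and 3 downstream, with 28.6-fold at 494978 bp and 22.0-fold at 341.0 kb upstream. Tle4, a Groucho-type corepressor gene, had 3 upstream and 8 downstream, none above 11.4-fold.

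Tcf7l2 had 4 peaks upstream, all shared with Vti1a, and 5 downstream, all shared with Habp2. Its 2 strongest, 37.0-fold and 26.8-fold, lay on opposite sides, 185528 bp upstream and 170305 bp downstream. Foxp1, a forkhead gene used in neurons, had 8 of 9 distal peaks downstream, all inside its body, from 4.19 to 10.5-fold. Nlgn1, a postsynaptic adhesion gene, had all 9 inside its body, between 61135 and 339487 bp, from 3.56 to 9.44-fold. Dach1, a retinal determination gene with 8, had them all inside its body too, the strongest 15.3-fold.

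**Figure D3:**
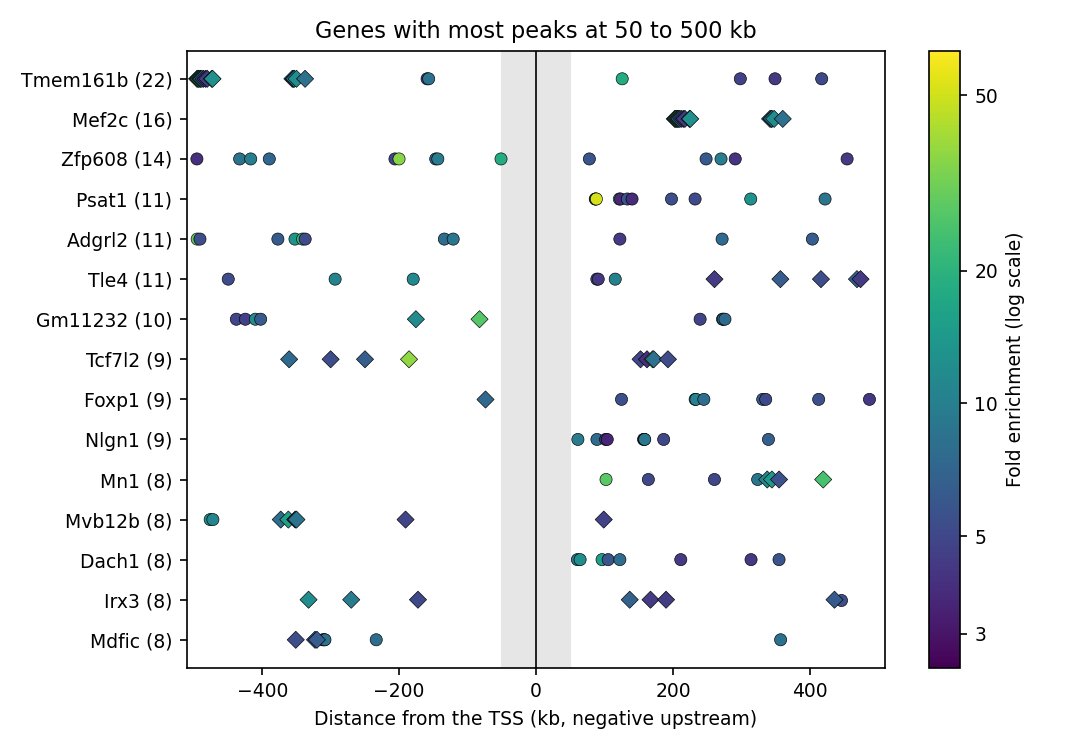
Signed distance from the TSS in kb (x axis) of each distal peak of the 15 genes with the most of them (rows, number of peaks in brackets), coloured by fold on a log scale. Diamonds are peaks shared with another gene in the class and circles are not shared, the grey band is the excluded 50 kb on each side, and the Tmem161b and Mef2c rows show the same 16 peaks from opposite sides.

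The group with the most distal peaks lay between Mef2c, which encodes a transcription factor of neuronal differentiation, and Tmem161b. All 16 distal peaks of Mef2c were shared with Tmem161b and fell into 2 groups. The first held 11 peaks in 23356 bp, chr13:83726949-83750304, at 202614 to 225290 bp downstream of the Mef2c TSS and 472.5 to 495.2 kb upstream of that of Tmem161b. Their folds were, in order from Mef2c, 9.69, 3.64, 29.8, 16.5, 4.65, 15.4, 4.16, 6.35, 4.40, 12.1 and 12.3, so 5 of 11 reached 10-fold, and the summit pileup ranged from 12 to 136 fragments. After 115829 bp without a distal peak, the second group held 5 in 19184 bp, chr13:83866134-83885317, with folds of 8.66, 5.56, 9.09, 12.1 and 8.27. The other 6 distal peaks of Tmem161b were not shared with Mef2c in the class and had folds of 4.27 to 18.1.

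The first group surrounded the miR-9 gene Mir9-2, a locus named after the values were seen. miR-9 is a microRNA of neural progenitors and neurons that promotes neurogenesis, including in the retina. Its hairpin, chr13:83738814-83738885 on the plus strand, stood 214.3 kb from the Mef2c TSS, with 7 peaks of the group before it and 4 after it, the nearest 401 bp away. The fifth peak of the group overlapped a start window of the long non-coding RNA gene C130071C03Rik and ended upstream of that start. The overlapped stretch is printed above. No distal peak overlapped any of the 1005 RefSeq hairpins, and 4 hairpins lay within 5000 bp of one. Closest of these 4 was Mir128-2 (chr9:112118636-112118711, minus strand), a microRNA gene in Arpp21 that is abundant in neurons. It lay 12 bp from a 9.96-fold peak assigned to Arpp21 and Stac. Of the mature forms at both loci, 3 are printed from RefSeq because these hairpins are not among the genes to which the peaks are assigned. Left out are mmu-miR-128-2-5p, from the other arm of Mir128-2, and mmu-miR-9b-3p of Gm51268, on the strand opposite Mir9-2. Capitals mark the seed, bases 2 to 8, and the 3 printed seeds differ.
mmu-miR-9-5p: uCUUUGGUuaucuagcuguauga
mmu-miR-9-3p: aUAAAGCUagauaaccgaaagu
mmu-miR-128-3p: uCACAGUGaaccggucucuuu

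**Figure D4:**
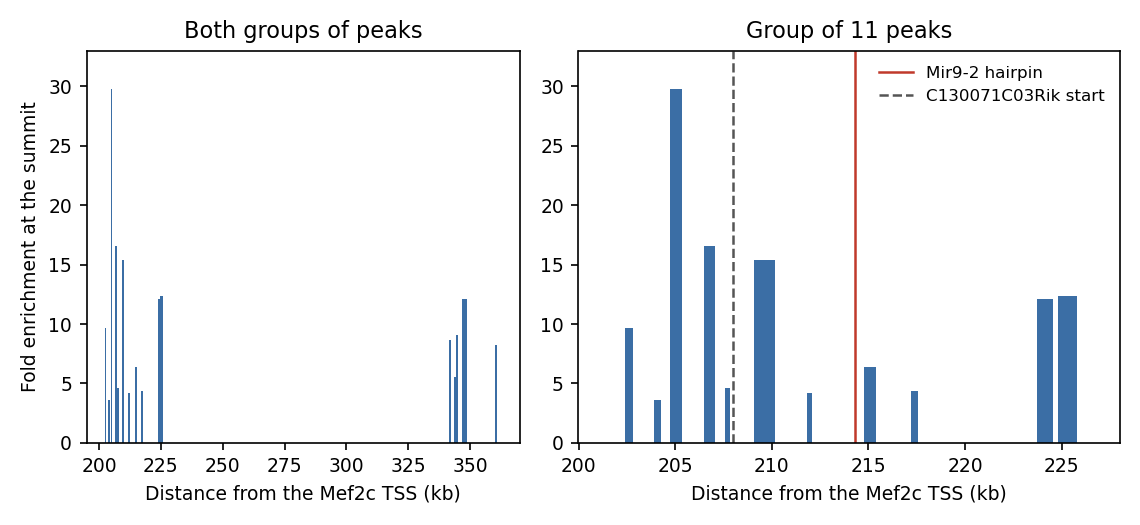
Fold at the summit (y axis) of the distal peaks of Mef2c by distance from its TSS in kb (x axis), both groups on the left and the group of 11 enlarged on the right, where bars have the peak's length. The highest bar is 29.8-fold, and lines mark the Mir9-2 hairpin at 214.3 kb and the C130071C03Rik start at 208.0 kb.

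Over all loci, that of Mef2c included, some neighbouring distal peaks of 1 gene stood close together. Between neighbouring distal peaks along the chromosomes there were 1818 gaps, of which 842 (46.3%) joined peaks with an assigned gene in common. Those 842 gaps, measured from midpoint to midpoint, had a median of 65599 bp (quartiles 15242 and 180508 bp), and 237 (28.1%, exact interval 25.1 to 31.3%) were of 20 kb or less. Chained at that limit, 410 peaks formed 172 groups, 133 of them pairs and 39 of at least 3 peaks. Peaks in groups had a median fold of 6.39 and those outside 6.37, a difference far smaller than the spread of folds.

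The next largest group had 6 peaks in 47952 bp between the TSSs of Tox and Nsmaf, up to 17.7-fold. Groups of 5 lay by Ccdc34 and between the TSSs of Foxp2 and Mdfic, besides the second one at Mef2c. Among groups of 4, that of Gins2 had the highest median fold, 24.1. The smallest gaps were 445.5 bp upstream of Bmp3, a gene of the bone morphogenetic protein family, 581 bp at Psat1, 605 bp at Lipi, 694.5 bp at a pair assigned to Col25a1 and Etnppl and 706 bp at Prune2. At Prune2 the neighbours differed in strength, 3.36-fold and 17.9-fold.

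Sharing was common, as 785 of the 1838 peaks (42.7%, exact interval 40.4 to 45.0%) lay 50 to 500 kb from both of 2 genes. All 785 stood between the 2 TSSs, since GREAT extends a gene's domain only as far as its neighbours. With respect to the genes' direction, 382 were upstream of one and downstream of the other, 296 downstream of both and 107 upstream of both. The farther TSS was a median of 1.83 times as far as the nearer, and in 273 cases (34.8%) no more than 1.5 times as far. In 148 cases the peak lay inside the body of the farther gene and not of the nearer. Median fold was 6.39 for shared peaks and 6.14 for those with 1 distal gene.

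The 785 peaks joined 526 pairs of genes, of which 147 shared at least 2 peaks and 27 at least 4. After Mef2c and Tmem161b with 16, Immp2l and Lrrn3 shared 6, with up to 23.8-fold, and Reln and Slc26a5 shared 6, with up to 13.3-fold. Reln encodes the extracellular matrix protein reelin, and all 6 lay inside it. Among the 6 strongest shared peaks were those of Slit3 with Pank3, Tcf7l2 with Vti1a, Agap1 with Gbx2 (2 peaks) and Tenm1 with Sh2d1a. The last reached 32.4-fold inside Tenm1, a teneurin adhesion gene.

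Some shared peaks fell in loci known for long-range regulation, named here after their values were seen. Irx3, an Iroquois homeodomain gene, had 8 distal peaks, and 4 of them, of 4.42 to 6.88-fold, were shared with Fto, whose introns are known to hold elements acting on Irx3. All 4 lay inside the body of Fto, from 136853 to 435955 bp downstream of the Irx3 TSS. Another 3, up to 12.1-fold, were shared with Irx5. Pax6, a master gene of eye development, had 2 peaks inside the neighbouring Elp4, which is known to hold eye elements of Pax6, at 103506 and 115226 bp (5.56 and 5.89-fold). Another, 8.70-fold, lay 159.8 kb upstream and was shared with Rcn1.

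A single peak, chr2:74450083-74450703 (15.4-fold, 62 fragments), was within the class for more than 2 genes. It was assigned to Lnpk, Evx2, Hoxd10, Hoxd11, Hoxd12 and Hoxd13 from 128555 bp (Lnpk) to -241531 bp (Hoxd10), and also to Atp5g3 beyond 500 kb. Per the file headers, GREAT's curated domains were included in the assignment, and whether they gave this case was not tested. The Hoxd genes are homeobox genes that pattern the limb and body axis.

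Gene lists by role held a distal peak for shares of 2.5 to 57.8% of their members, against 6.82% (1493 of 21896) of all protein-coding genes. The median locus span was 98.9 kb over all protein-coding genes and 566 kb over those with a distal peak. The list with the highest share, neural adhesion genes, had the widest median span, 2557 kb. That with the lowest share, liver and muscle genes, had the narrowest, 90.9 kb. The lists between them did not keep that order throughout, and the part of span in the shares was not tested. RGC identity genes had one in 24 of 50 cases (48.0%, exact interval 33.7 to 62.6%, median span 475 kb), retinal progenitor genes in 18 of 42 (42.9%, span 315 kb) and amacrine and horizontal cell genes in 15 of 30 (50.0%, span 500 kb). Photoreceptor and bipolar cell genes had one in 6 of 25 (span 141 kb). Lists share members, as Ebf3, Barhl2 and Isl1 stand in both the RGC and the amacrine list.

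**Figure D5:**
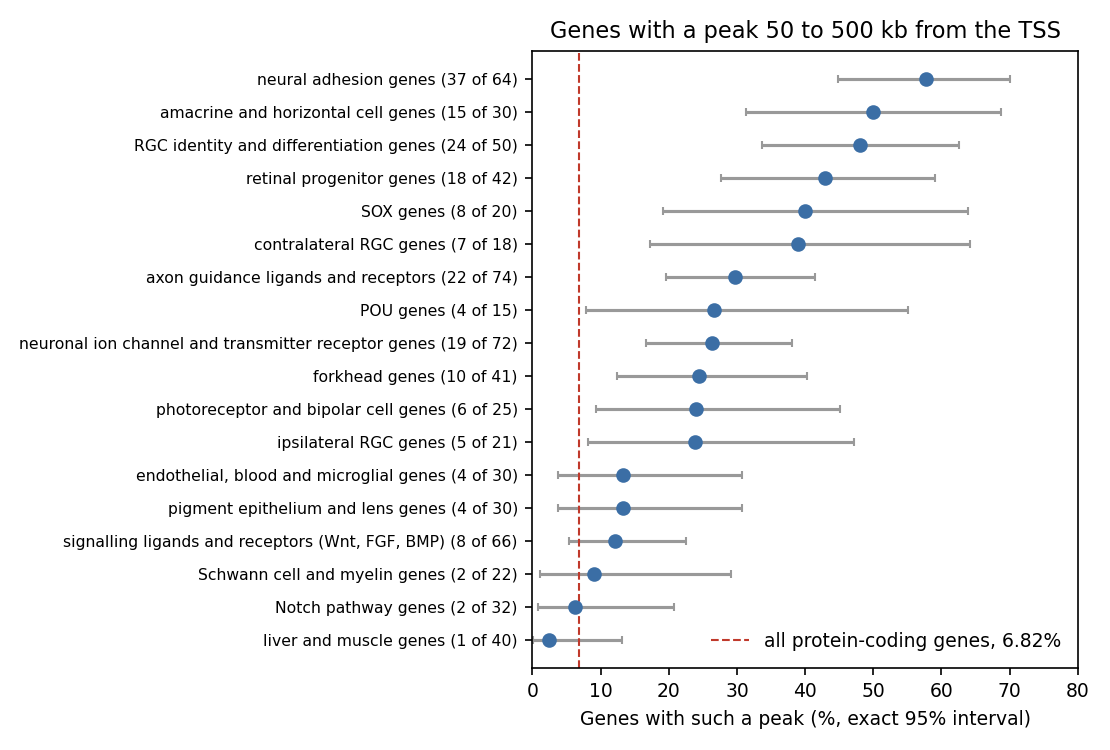
Percentage of each list's genes with a peak 50 to 500 kb from the TSS (points), with exact 95% intervals (bars), and the 6.82% of all protein-coding genes (dashed line). Neural adhesion genes stand at 57.8% and liver and muscle genes at 2.5%.

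Among RGC identity genes the highest distal peaks were those of Mef2c (29.8-fold), Pou4f1 (19.7-fold) and Ebf3 (16.2-fold), all transcription factor genes. Isl1, a LIM-homeodomain gene of early RGCs, had 4 distal peaks of 3.36 to 7.86-fold. Progenitor genes were led by Nfia (33.4-fold, 496482 bp upstream), Tle1 (27.0-fold) and Neurog2 (21.6-fold), a proneural factor gene. Meis1, another progenitor gene, had 6, the strongest of 17.8-fold over the start of the non-coding gene Gm31674. Lmo4 (37.0-fold), Ebf3 and Barhl2 (14.6-fold) led the amacrine and horizontal list, and Casz1 (16.3-fold), Rorb (7.11-fold) and Sall3 (6.86-fold) the photoreceptor and bipolar list.

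Contralateral RGC genes had a distal peak in 7 of 18 cases (38.9%, exact interval 17.3 to 64.2%, median span 783 kb). Pou3f1 itself had none, since its 2 peaks lie 40327 and 16996 bp upstream. Pou4f1 had 3, of 19.7, 8.98 and 12.9-fold at 111283, 167644 and 169959 bp downstream. Sox4, a SoxC factor gene of RGC differentiation, had 6, all upstream between 61.7 and 462.7 kb, from 3.91 to 14.3-fold. Its relative Sox11 had 3, from 4.72 to 9.96-fold, 1 upstream and 2 over 450 kb downstream. Fgf12 had 2 upstream, of 15.1 and 5.38-fold.

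Robo2, the receptor for Slit ligands, had 4 inside its body, from 4.42 to 6.15-fold. Nrcam, an adhesion gene of crossing axons, had 1 inside its body (7.48-fold), and Nrp1, a receptor for VEGF and semaphorins, had 1 at 407.3 kb upstream (7.86-fold). Pileups at the strongest peaks of these 7 genes ranged from 15 fragments for Nrp1 to 49 for Pou4f1.

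Ipsilateral RGC genes had one in 5 of 21 cases (23.8%, 8.22 to 47.2%, median span 770 kb), and the 2 lists were not tested against each other. Zic5, a zinc finger gene, had 2 at 83062 and 209095 bp (14.7 and 7.08-fold), both shared with Clybl. Tenm3 had 4, from 3.92 to 11-fold. Unc5c, a netrin receptor gene, had 7 of 3.08 to 6.39-fold, 5 of them shared with Bmpr1b. Cdh4 had 2 and Ntng1 had 1, none above 6.88-fold.

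Neural adhesion genes had one in 37 of 64 cases (57.8%, exact interval 44.8 to 70.1%), with the widest median span of the lists, 2557 kb. Their strongest were those of Tenm1 (32.4-fold), Adgrl2 (28.6-fold) and Lrrn3 (23.8-fold). Axon guidance ligands and receptors had one in 22 of 74 (29.7%, span 273 kb), led by Slit3, Epha3 and Epha6 (21.9-fold, 436.1 kb upstream). Neuronal channel and receptor genes had one in 19 of 72 (26.4%, span 698 kb), the strongest of 10.3-fold at Cacna2d1, which encodes a calcium channel subunit, then Kcnh5 (9.82-fold) and Scn8a (9.33-fold).

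In transcription factor families, SOX genes had one in 8 of 20 cases (span 271 kb), led by Sox4, Sox2 (11-fold) and Sox6 (10.3-fold), forkhead genes in 10 of 41, led by Foxb1 (25-fold), Foxn3 (11.9-fold) and Foxp1, and POU genes in 4 of 15. The POU genes were Pou4f1, Pou2f1 (11.5-fold), Pou5f2 (5.22-fold) and Pou4f2 (4.48-fold). Ligands and receptors of Wnt, FGF and BMP signalling had one in 8 of 66 (12.1%, span 215 kb). Fgf12, Fzd1 (12.1-fold) and Fgf5 (7.37-fold) stood highest. Notch pathway genes had one in 2 of 32 (6.25%, span 118 kb), Hes1 (8.02-fold) and Rbpj (5.33-fold), a share near the 6.82% background.

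Lists for pigment epithelium and lens, endothelial, blood and microglial, Schwann cell and myelin, and liver and muscle genes stood closer to that background. Their loci were narrower than those of the RGC and progenitor lists. The photoreceptor and bipolar list (24.0%) and the amacrine and horizontal list (50.0%) stood further above the background. Median spans were 139 kb for pigment epithelium and lens genes and 131 kb for endothelial, blood and microglial genes. They were 162 kb for Schwann cell and myelin genes and 90.9 kb for liver and muscle genes. The part of span in these low shares was not tested. Pigment epithelium and lens genes had one in 4 of 30 (13.3%), Cryba4 (33.2-fold), Mitf (19.0-fold) and Trpm3 (18.2-fold) highest. Cryba4 had 7 peaks, 4 of them shared with Mn1. Endothelial, blood and microglial genes had one in 4 of 30, with Ptprc (13.4-fold), Emcn (7.86-fold) and Runx1 (5.77-fold) highest. Schwann cell and myelin genes had one in 2 of 22, Nkx6-2 (6.39-fold) and Ugt8a (6.30-fold), and liver and muscle genes in 1 of 40, Ryr1 (7.37-fold).

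The pairs next to the limits of the class were these. Just outside 50 kb stood Snx11 at 49709 bp (14.2-fold) and Mtss1 at 49680 bp (7.2-fold), and just inside Mapk10 at 50055 bp (8.35-fold) and Ddx3x at 50083 bp upstream (17.7-fold). At the far border Foxp2 at 499227 bp (6.39-fold) and Tle3 at 499135 bp (20.6-fold) were just inside, and Clint1 at 500382 bp upstream (14.7-fold) and Tle4 at 501484 bp (15.7-fold) just outside.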

How the data were processed

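CUT&RUN was analysed from the files the authors deposited for 1 POU3F1 antibody library. The submitters' processing notes name Bowtie2, MACS2, deepTools and the build mm10, without versions. For each interval the deposited peak list holds a fold enrichment, which is a ratio, a score, and p and q as −log10 values, all computed by the authors with a q-value threshold of 0.05. Per the file headers, the gene table was made with GREAT 4.0.4 (5000 bp upstream, 1000 bp downstream, up to 1000000 bp of extension, curated domains included). Peaks were called once, and library depth is unknown from these files, so precision is given by the summit pileup.

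Each gene was matched to RefSeq GRCm38.p6 (2184 of 2323 by symbol, 86 by synonym, 53 not), and the TSS and strand were sought that put its distances on peak midpoints, within 100 kb of its body. A gene with 1 distance was placed only near a RefSeq start (20 kb) or where 1 position in its body fitted. Coordinates are mm10, counted from 1. The pileup is the whole number whose Poisson p-value gives the deposited −log10 p within 0.001 or the rounding of the deposited fold, where fold is (pileup + 1) / (background + 1). Placement and pileup were tested on simulated data. Intervals are exact binomial 95% (scipy 1.17.1), and Python 3 with pandas was used for the rest. No test was made, since there is 1 library.

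The members and gene lists were chosen with earlier results of these data known. Genes named are Pou3f1, the 12 with the most distal peaks, those of the 12 strongest distal and 6 strongest shared peaks, the 3 strongest of each of the 18 lists, all contralateral and ipsilateral members, the 2 pairs at each side of a limit and the 5 smallest gaps. All other genes were named after their values were seen. A result that this rule would name is not reported here. Alternatives tried were a q-value under 0.001, the nearest gene alone, other distance limits, other gaps and a looser match. The search of start windows for the octamer and the microRNA neighbours were chosen after the data were seen.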

Additional observations from a re-analysis of the deposited data

How the results depend on the processing

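The counts depend mainly on how genes are assigned. With the gene of the nearest assigned TSS alone, 1473 pairs were left in place of 2685, and 291 genes in place of 546 had several distal peaks. Peaks shared by 2 genes were 785, against 1495 with the second gene at any distance, 484 with a lower limit of 100 kb and 1193 with an upper limit of 1000 kb. The median fold was 6.55 in place of 6.38 at a q-value under 0.001, as that leaves out weak peaks. The share of gaps counted as close was 20.9% at 10 kb and 43.9% at 50 kb, in place of 28.1% at 20 kb. Of 71 alternative values, 58 stayed within 1.5 times the main count or, for shares and the median, within the counting interval. Of 36 values for single lists 5 moved further, all with the nearest gene alone. The amacrine and horizontal list then had 9 genes in place of 15, the signalling list 5 in place of 8, the pigment and lens list 2 in place of 4, the Schwann cell list 1 in place of 2 and the Notch list 0 in place of 2. The octamer in the intervals themselves was not run, as no genome was used here. No paired analysis was possible because each antibody had 1 library and no test was made. Depth limits single peaks: 1003 of 1838 rest on under 20 fragments.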
